A study of Bos taurus with 9 samples.

Results

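The bovine major histocompatibility complex (MHC) class II genes were the 10 rows of the liver gene count table with the symbols *BOLA-DRA*, *BOLA-DRB2*, *BOLA-DRB3*, *BOLA-DQA2*, *BOLA-DQA5*, *BOLA-DQB*, *BOLA-DMA*, *BOLA-DMB*, *BOLA-DOA* and *BOLA-DOB*. They were 10 of 28786 genes in the table and were chosen by symbol. Liver biopsies came from 9 lactating Holstein cows in 3 groups of 3, with 1 poly(A) RNA library per cow. TN cows were kept at thermoneutrality, HS cows were kept under heat stress, and PF cows were kept at thermoneutrality but given only as much feed as the heat-stressed cows ate. No cow was sampled under more than 1 treatment and no genotype was measured, so for a gene that differs between animals the cow and the treatment cannot be told apart. A biopsy holds hepatocytes, resident macrophages (Kupffer cells), sinusoidal endothelium and lymphocytes together, and in such bulk RNA, fewer cells of a type and less RNA per cell cannot be told apart.

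MHC class II molecules are surface dimers of an alpha and a beta chain that show peptides from ingested proteins to CD4+ T cells. They are made mainly by macrophages, dendritic cells and B cells, and in liver the Kupffer cells carry them. Cattle present antigen with DR and DQ molecules, and cattle haplotypes are known to differ in how many DQ genes they hold. The DM dimer loads peptides onto class II molecules in the endosome, and the DO dimer restrains DM.

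Between 16874444 (TN replicate 1) and 22557047 (HS replicate 1) reads per library fell on genes. Levels are given as CPM, counts scaled by a library size that TMM normalization corrects, and 3 counts, the upper limit that a count of 0 allows, correspond to 0.111 to 0.202 CPM depending on the library. All 7 hepatocyte markers had at least 1 CPM in every cow, as liver should have, but their summed level in TN replicate 1 was 16303 CPM against 59113 to 127737 CPM in the other 8 cows. The comparisons of members with TN are therefore also given without TN replicate 1. Those of other genes, and of shares of counts, are given with it only. Transcript lengths were not used here, so CPM of different genes are not ranked against each other.

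In the ARS-UCD2.0 gene list the genes lay in 2 blocks with 372 listed genes between them. The first block held *BOLA-DYA*, *BOLA-DYB*, *BOLA-DOB*, *BOLA-DMB*, *BOLA-DMA* and *BOLA-DOA* in this order. The second held *BOLA-DQA2*, *BOLA-DQB*, *BOLA-DQA5*, *BOLA-DQB1*, *LOC100848815*, *BOLA-DRB3*, *BOLA-DRB2* and *BOLA-DRA*. *BOLA-DQB1* is counted under its synonym *BLA-DQB* in the count table. *LOC100848815* has *BoLA-DQA1* as a synonym, and it is a further DQ alpha-chain gene that is described below only where the results turn on it. *BOLA-DYA* and *BOLA-DYB*, the chains of the DY molecule of bovine dendritic cells, had at most 2 counts in any cow.

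The members fell into 3 classes. *BOLA-DRA*, *BOLA-DRB3*, *BOLA-DMA*, *BOLA-DMB* and *BOLA-DOA* were expressed in all 9 cows, with at least 1 CPM in the lowest library. *BOLA-DQA2*, *BOLA-DQA5* and *BOLA-DQB* were on or off: the lowest cow had less than 1 CPM and the highest had over 10 times the lowest, both after adding 0.5 CPM. *BOLA-DRB2* and *BOLA-DOB* were low, with a highest cow at 4.14 and 2.23 CPM. Inside the 10-fold limit lay *BOLA-DQB* at 12.7-fold and *BOLA-DQA5* at 14.2-fold, and outside lay *BOLA-DOB* at 5.47-fold and *BOLA-DRB2* at 4.06-fold. *BOLA-DQA2* lay far inside at 50.5-fold. With the 0.5 CPM offset, *BOLA-DOB* and *BOLA-DRB2* were too low to exceed 10-fold even over a cow at 0 CPM. Their low level was therefore enough to keep them out of the on-or-off class. *BOLA-DRB2* also had a spread under 10-fold without the offset, at 6.43-fold. The pattern was rare in the liver transcriptome, as it was found in 0.812% of the 9858 genes with a highest library over 10 CPM. Of the 6 members over 10 CPM, 1 had it. Among the 11341 genes that reached the highest level of the weakest on-or-off member, 1.14% had it.

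**Figure D1:**
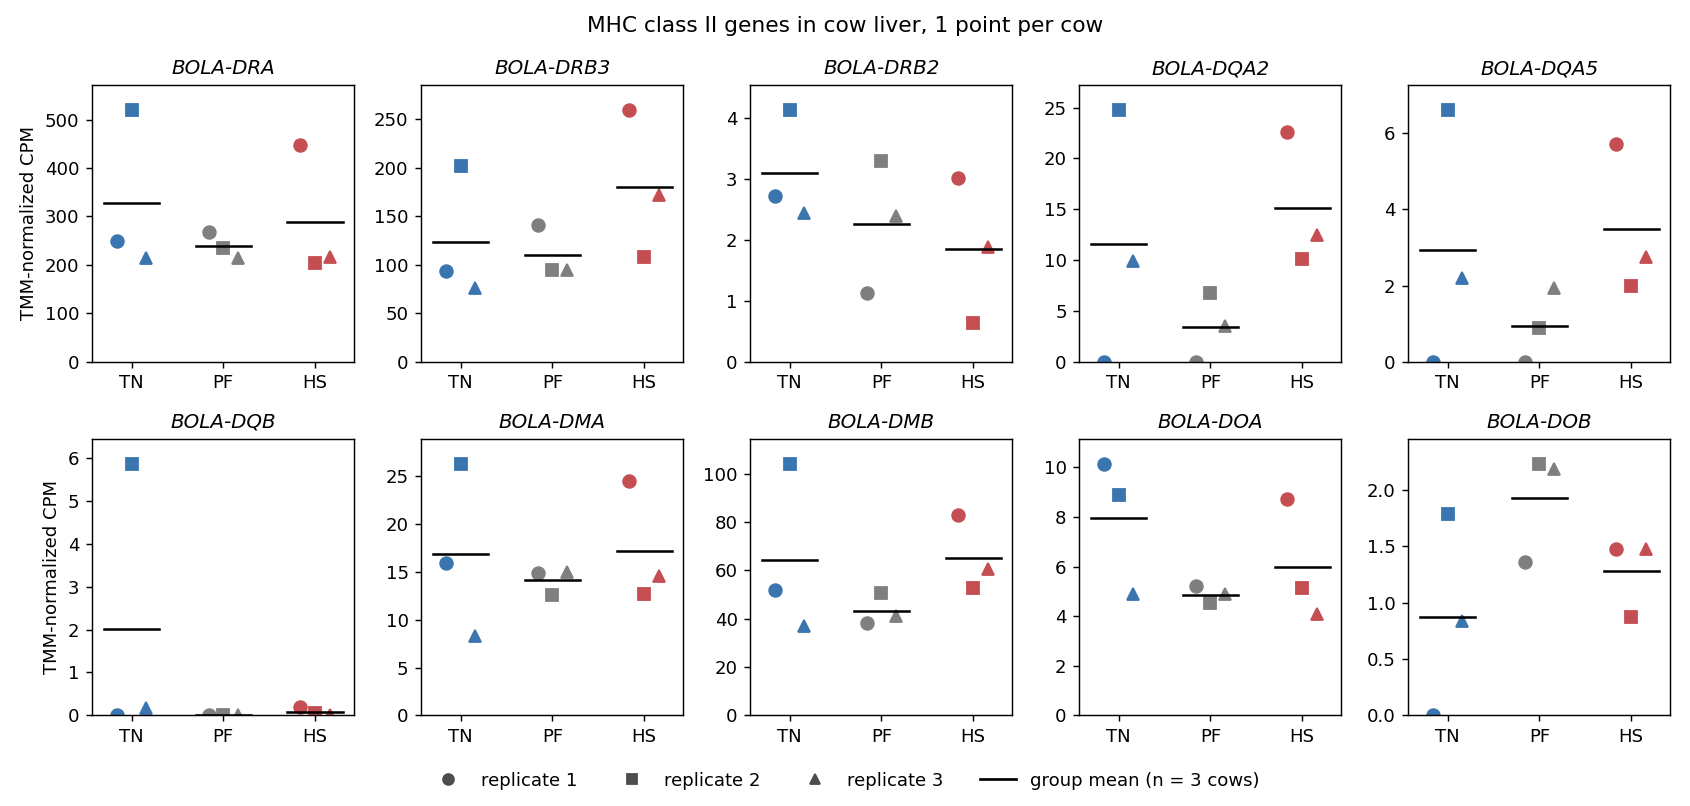
TMM-normalized CPM (y axis, a linear scale of its own in each panel) of the 10 class II genes in the TN, PF and HS groups (x axis), with 1 point per cow and a line at the mean of 3 cows. TN replicate 1 and PF replicate 1 sit at 0 for BOLA-DQA2 and BOLA-DQA5, TN replicate 2 is the only cow well above 0 for BOLA-DQB, and TN replicate 2 and HS replicate 1 are high in most other panels.

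*BOLA-DQA2*, an alpha chain of the antigen-presenting DQ dimer, had 0, 24.8 and 9.95 CPM in TN, 0, 6.76 and 3.57 CPM in PF, and 22.6, 10.1 and 12.5 CPM in HS replicates 1, 2 and 3. *BOLA-DQA5*, another DQ alpha chain, had 0, 6.60 and 2.20 CPM in TN, 0, 0.893 and 1.94 CPM in PF, and 5.72, 1.99 and 2.76 CPM in HS. Thus both genes were off in the same 2 cows, TN replicate 1 and PF replicate 1, and on in the other 7, with HS the only group in which every cow expressed them. Neither gene had a single count in the 2 cows. With the limit of 3 counts in these cows, the lowest of the other 7 was at least 20.1-fold higher for *BOLA-DQA2* and at least 5.03-fold higher for *BOLA-DQA5*, and the highest was at least 139-fold and 37.2-fold higher. Each of the 129 genes with an on-or-off pattern at this level of expression was split at the largest gap between cows on the log2 scale, and only these 2 nearby genes set exactly TN replicate 1 and PF replicate 1 below the gap. In the 7 cows with both genes on, *BOLA-DQA5* took 16.4% to 21.1% of their joint counts in TN replicates 2 and 3 and in the 3 HS cows. It took 11.7% (95% Wilson interval 7.32% to 18.1%) in PF replicate 2 and 35.2% (26.8% to 44.6%) in PF replicate 3, so the 2 PF cows differed beyond counting error. Such intervals cover counting error only.

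*BOLA-DQB*, a DQ beta chain, had 95 counts (5.86 CPM) in TN replicate 2 and 3 counts in TN replicate 3. TN replicate 1 and every PF cow had 0 counts, and the HS replicates had 5, 1 and 0 counts. It was therefore on in a single cow, at least 29.1-fold over the limit of 3 counts. Of the 129 on-or-off genes, 3 others had their largest gap between TN replicate 2 and the other 8 cows: *SPP1*, the secreted matrix protein osteopontin, *CXCL11*, an interferon-induced chemokine, and the unnamed *LOC101903252*. *BOLA-DQB* lay between *BOLA-DQA2* and *BOLA-DQA5* in the gene list, but 6 of the 7 cows with these neighbours on had at most 5 counts of it. The other DQ beta-chain row, *BLA-DQB*, had 27.2, 42.9 and 8.52 CPM in TN, 22.9, 14.5 and 17.2 CPM in PF, and 20.6, 12.7 and 5.58 CPM in HS. It was detected in all 9 cows and held 88.0% of the counts of the 2 DQ beta-chain rows in TN replicate 2 and at least 97.9% in the other 8.

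The off cows of *BOLA-DQA2* and *BOLA-DQA5* did have DQ alpha-chain counts, all of them on *LOC100848815*. This gene had 72.3, 100.4 and 0.715 CPM in TN, 92.5, 47.5 and 46.9 CPM in PF, and 1.51, 0.292 and 0.605 CPM in HS. In TN replicate 1 it held 1617 of 1617 DQ alpha-chain counts, which allows the other 2 genes a share of up to 0.186%, and in PF replicate 1 it held 1563 of 1563. The 3 genes separated the cows into 3 patterns. TN replicate 1 and PF replicate 1 had *LOC100848815* only. TN replicate 2 and PF replicates 2 and 3 had all 3 genes, with *LOC100848815* at 76.2%, 86.1% and 89.5% of the counts. TN replicate 3 and the 3 HS cows had mainly *BOLA-DQA2* and *BOLA-DQA5*, with *LOC100848815* at 5.56% (3.21% to 9.46%) in TN replicate 3 and at 5.07%, 2.36% and 3.81% in HS replicates 1, 2 and 3. The 3 HS cows thus shared a pattern, the PF cows had the other 2, and TN had a cow of each. The edgeR fit of HS and PF gave *LOC100848815* a log2 fold change of -6.17 (SE 0.53, FDR 0.00225), whereas HS vs TN gave -6.08 (SE 1.35, FDR 0.269) and PF vs TN 0.10 (SE 0.94, FDR 0.977). TN replicate 3 had the pattern of the HS cows without heat stress. The reads were aligned to 1 reference genome with at most 3 mismatches, and the cows' alleles, which were not typed, and their treatments cannot be told apart in these counts.

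The total of DQ alpha-chain counts also differed between these cows. Per 100 counts of *BOLA-DRA*, the 3 genes summed to 29.0, 25.4 and 6.01 in TN, 34.4, 23.4 and 24.5 in PF, and 6.68, 6.08 and 7.37 in HS. TN replicate 3 and the 3 HS cows thus lay between 6.01 and 7.37. The 5 cows with most of these counts on *LOC100848815* lay between 23.4 and 34.4, with no cow between. *BOLA-DRA* itself did not separate the cows in this way.

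**Figure D2:**
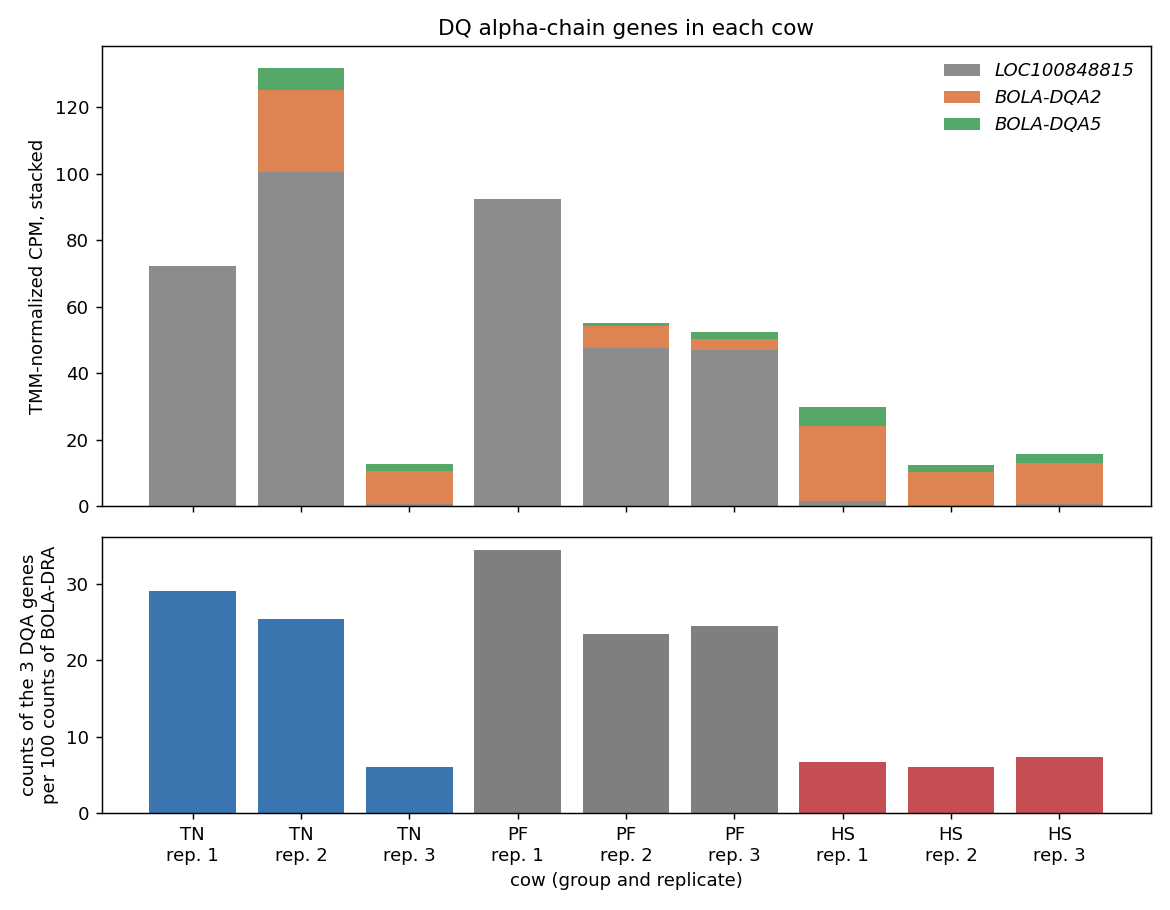
DQ alpha-chain genes in each of the 9 cows (x axis): the upper panel stacks the TMM-normalized CPM of LOC100848815, BOLA-DQA2 and BOLA-DQA5 (y axis), and the lower panel gives their summed counts per 100 counts of BOLA-DRA (y axis). TN replicate 1 and PF replicate 1 show LOC100848815 only, and TN replicate 3 and the 3 HS cows show almost none of it and the lowest sums, 6.01 to 7.37.

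*BOLA-DRA*, the alpha chain shared by DR molecules, had 249, 519.7 and 214 CPM in TN, 269, 236 and 214 CPM in PF, and 447, 204 and 215 CPM in HS. The means were 328 ± 167 (SD, n = 3), 239.6 ± 27.6 and 289 ± 137 CPM, and TN replicate 2 and HS replicate 1 stood above the other 7 cows. *BOLA-DRB3*, the main DR beta chain of cattle and a highly polymorphic gene, had 93.7, 202 and 75.7 CPM in TN, 140.4, 94.1 and 94.8 CPM in PF, and 259, 107 and 172 CPM in HS. The same 2 cows were highest, the HS mean of 179.7 ± 76.2 CPM (SD, n = 3) was above those of TN (124 ± 68.2) and PF (109.8 ± 26.6), and all 3 groups overlapped. *BOLA-DRB2*, a DR beta-chain gene known to be weakly transcribed, had 2.73, 4.14 and 2.44 CPM in TN, 1.12, 3.29 and 2.39 CPM in PF, and 3.03, 0.643 and 1.88 CPM in HS. It was detected in every cow, with 11 counts in the lowest.

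The balance of DR beta to DR alpha counts varied less within groups than either level. *BOLA-DRB3* took 27.3%, 28.0% and 26.1% of the counts of *BOLA-DRA* and *BOLA-DRB3* in TN, 34.3%, 28.5% and 30.7% in PF, and 36.7%, 34.5% and 44.4% in HS. The means were 27.1% ± 0.949 in TN, 31.2% ± 2.93 in PF and 38.6% ± 5.19 in HS (SD, n = 3), and no group overlapped another, though TN and PF, and PF and HS, nearly met. The exact two-sided permutation test gave p = 0.1 for each pair of groups, which is the smallest value that 3 cows against 3 allow, so the design cannot reach 0.05. *BOLA-DRB2* took 2.83%, 2.01% and 3.13% of the counts of both DR beta-chain genes in TN, 0.794%, 3.38% and 2.46% in PF, and 1.15%, 0.595% and 1.08% in HS. Every HS cow lay below every TN cow (exact two-sided permutation p = 0.1), whereas HS and PF overlapped (p = 0.3, exact permutation) and so did PF and TN (p = 0.7, exact permutation). These shares were chosen after their values were seen, and with the split of the DM dimer they made a family of 9 tests, in which p = 0.1 was adjusted to 0.225 (exact permutation, Benjamini-Hochberg). *BOLA-DRB3* and *BOLA-DRB2* are similar in sequence, and how reads fitting both genes were counted is not given in the sources used here.

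**Figure D3:**
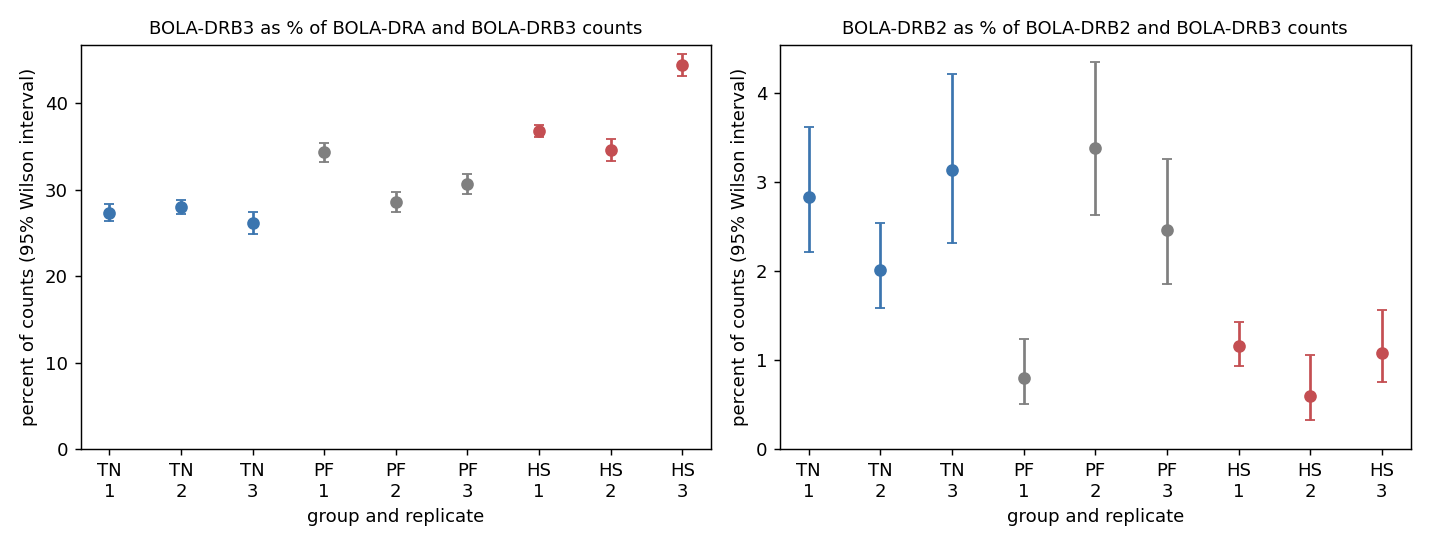
Percent of counts (y axis) taken by BOLA-DRB3 among BOLA-DRA and BOLA-DRB3 (left) and by BOLA-DRB2 among BOLA-DRB2 and BOLA-DRB3 (right) in each cow (x axis), with 95% Wilson intervals for counting error. On the left the 3 HS cows (34.5% to 44.4%) lie above the 3 TN cows (26.1% to 28.0%), and on the right the 3 HS cows (0.595% to 1.15%) lie below the 3 TN cows (2.01% to 3.13%).

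*BOLA-DMB*, the beta chain of the peptide-loading DM dimer, had 52.0, 104 and 37.1 CPM in TN, 38.1, 50.5 and 41.2 CPM in PF, and 83.0, 52.5 and 60.4 CPM in HS. Every HS cow was above every PF cow, by a narrow margin between HS replicate 2 and PF replicate 2, and the TN cows spanned both groups. *BOLA-DMA*, the DM alpha chain, had 15.9, 26.3 and 8.28 CPM in TN, 14.9, 12.6 and 15.0 CPM in PF, and 24.5, 12.7 and 14.5 CPM in HS. The groups overlapped, and the share of *BOLA-DMA* in the DM counts was 20.6% ± 2.60 for TN, 24.9% ± 4.34 for PF and 20.5% ± 1.93 for HS (SD, n = 3). Unlike the split of the DR chains, that of the DM chains overlapped between all groups (exact two-sided permutation p = 1 for HS vs TN, 0.2 for HS vs PF and 0.3 for PF vs TN).

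*BOLA-DOA*, the alpha chain of the DO dimer, had 10.1, 8.89 and 4.89 CPM in TN, 5.21, 4.52 and 4.89 CPM in PF, and 8.74, 5.14 and 4.10 CPM in HS. It was the only one of the 5 broadly expressed members with its highest level in TN replicate 1. *BOLA-DOB*, the DO beta chain, had 0, 1.79 and 0.834 CPM in TN, 1.36, 2.23 and 2.19 CPM in PF, and 1.48, 0.877 and 1.48 CPM in HS. Its 0 counts in TN replicate 1, the cow with the highest *BOLA-DOA*, stood beside 14 to 43 counts in the other 8 cows.

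Heat stress was compared with thermoneutrality (HS vs TN) to see the whole response of the liver, with pair-feeding (HS vs PF) to see heat at matched intake, and PF with TN to see reduced intake. The comparisons share cows, so they are not independent of each other. All members but *BOLA-DQB*, 9 in all, had enough counts to be tested in each comparison. By edgeR none of them reached both an FDR under 0.1 and a 1.5-fold change in any comparison, and DESeq2 called none of them either. The share of all genes called was 0.0892% (13 of 14582) in HS vs TN, 0.0276% (4 of 14510) in HS vs PF and 0% (0 of 14580) in PF vs TN. In the test across the 3 groups, which called 0.0464% of 15073 genes, the FDR of the 9 members ranged from 0.727 to 0.917, and the lowest was 0.888 without TN replicate 1.

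In HS vs PF, 7 of 9 members had a positive log2 fold change and 2 a negative one, with a median of 0.30 against 0.01 over all genes. *BOLA-DQA2* differed by 2.13 on the log2 scale (SE 0.86, 95% interval 0.23 to 4.03, edgeR FDR 0.874), *BOLA-DQA5* by 1.87 (SE 0.92, -0.15 to 3.89), *BOLA-DRB3* by 0.71 (SE 0.34, -0.03 to 1.45) and *BOLA-DMB* by 0.59 (SE 0.25, 0.05 to 1.13, edgeR FDR 0.902). *BOLA-DQA2* and *BOLA-DMB* had an unadjusted edgeR p under 0.05, as did 5.31% of all genes, and in *BOLA-DQA2*, *BOLA-DQA5* and *BOLA-DMB* the HS and PF cows did not overlap, as in 10.5% of all genes. Without PF replicate 1, the PF cow at 0, *BOLA-DQA2* differed by 1.55 on the log2 scale (edgeR FDR 0.845). Without HS replicate 1 no member had an unadjusted p under 0.05, and *BOLA-DQA2* differed by 1.68, *BOLA-DMB* by 0.37 and *BOLA-DRB3* by 0.34 (edgeR FDR 0.998 for each). In the same fit *BOLA-DRA* (-0.21), *BOLA-DMA* (-0.07) and *BOLA-DOA* (-0.09) turned from positive to negative. With all cows, *BOLA-DRA* differed by 0.27 (SE 0.33, -0.47 to 1.00), an interval that reaches up to a change of 1.00 on the log2 scale.

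In HS vs TN, 6 members had a positive and 3 a negative log2 fold change, with a median of 0.02 against -0.01 over all genes. No member had an unadjusted p under 0.05, which 9.36% of all genes had, and none separated the groups, as 16.1% of all genes did. The DM genes were closest to 0, with 0.01 (SE 0.37, 95% interval -0.82 to 0.84) for *BOLA-DMB* and 0.02 (SE 0.41, -0.89 to 0.93) for *BOLA-DMA*. *BOLA-DRA* had -0.20 (SE 0.45, edgeR FDR 0.896). *BOLA-DRB3* had 0.53 (SE 0.44, edgeR FDR 0.694), which was 1.07 without TN replicate 2 (edgeR FDR 0.351, with an unadjusted p under 0.05), 0.27 without TN replicate 3 and 0.17 without HS replicate 1. *BOLA-DRB2* had the lowest value, -0.74 (SE 0.58, edgeR FDR 0.671). Without TN replicate 1 no member was called either (lowest FDR 0.864, edgeR), and *BOLA-DQA2*, *BOLA-DQA5*, *BOLA-DMA*, *BOLA-DMB* and *BOLA-DOB* changed sign.

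In PF vs TN, 8 members had a negative and 1 a positive log2 fold change, with a median of -0.45 against -0.01 over all genes. All 5 members expressed in every cow were among the negative ones, from -0.17 for *BOLA-DRB3* to -0.72 (SE 0.35, 95% interval -1.49 to 0.06, edgeR FDR 0.709) for *BOLA-DOA*. None had an unadjusted p under 0.05, which 6.88% of all genes had, and in none did the groups separate, as they did in 13.2% of all genes. The positive one was *BOLA-DOB*, at 1.16 (SE 1.02, edgeR FDR 0.774), which was 0.56 without TN replicate 1, the cow with 0 counts of it, and 2.24 without TN replicate 2. Without TN replicate 1, *BOLA-DQA2* had -2.32 in place of -1.74 and an unadjusted p under 0.05, and the FDR of every member was 1.00 (edgeR). Without TN replicate 2, the cow with the highest class II level, the values of *BOLA-DRA*, *BOLA-DRB3* and *BOLA-DMA* became positive, at 0.05, 0.38 and 0.23, and *BOLA-DQA2* had -0.52. Across the 3 groups, PF had the lowest mean level of 8 of the 10 members, but for each member the groups next to each other in the order of means overlapped.

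**Figure D4:**
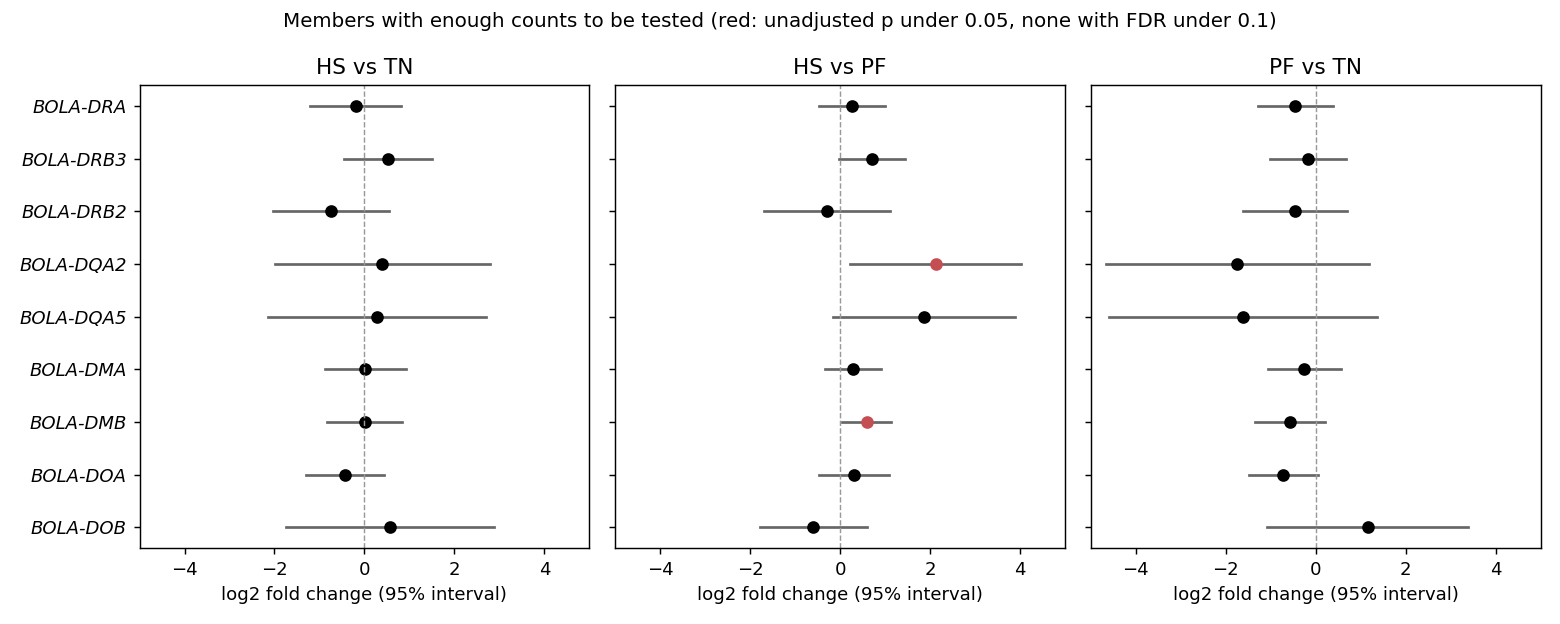
Log2 fold changes (x axis) of the 9 members with enough counts (y axis) in HS vs TN, HS vs PF and PF vs TN, as points with 95% intervals from the edgeR fit. Red points mark BOLA-DQA2 and BOLA-DMB in HS vs PF, the only ones with an unadjusted p under 0.05, and no member had an FDR under 0.1.

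The other genes of the class II pathway were 17 regulators, processing enzymes and partners. Of these, 15 had enough counts, and edgeR called none in any comparison, where it called at most 0.0892% of all genes. There were 3 positive and 12 negative values in HS vs TN, 8 and 7 in HS vs PF, and 2 and 13 in PF vs TN. *CIITA*, the coactivator that switches class II genes on, had 11.8, 19.3 and 15.0 CPM in TN, 12.4, 9.99 and 11.97 CPM in PF, and 12.3, 11.6 and 10.02 CPM in HS. Its log2 fold change was -0.45 (SE 0.25, edgeR FDR 0.573) in HS vs TN and -0.02 (SE 0.24) in HS vs PF. *RFX5*, which binds the X box of class II promoters, ranged from 2.29 to 5.72 CPM without a group of its own. *LAG3*, an inhibitory receptor that binds class II molecules, had 2.73, 8.09 and 4.11 CPM in TN, 2.90, 2.18 and 1.63 CPM in PF, and 1.29, 1.11 and 1.88 CPM in HS. The HS values all lay under the TN values, and 16.1% of all genes separated these groups. The log2 fold change of *LAG3* in HS vs TN, -1.81 (SE 0.50), did not pass the test (FDR 0.381, edgeR). *NFYC*, a subunit of the Y box factor NF-Y, had -0.60 (SE 0.24, edgeR FDR 0.503) in HS vs TN. *LAG3* and *NFYC* were the 2 of 15 tested pathway genes with an unadjusted p under 0.05 there (13.3%), against 9.36% of all genes. Only *LAG3* (-1.15, SE 0.50, edgeR FDR 0.708) had one in PF vs TN (6.67%), against 6.88% of all genes. *CTSL* and *MARCH1* had too few counts to be tested.

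The levels of the 5 members expressed in every cow went up and down together across cows. TN replicate 2 was among the 2 highest cows for all 5, HS replicate 1 for 4, and TN replicate 1 for *BOLA-DOA* alone. Over the 9 cows, Pearson's r between the 10 pairs of these genes on log2 levels ranged from 0.39 to 0.87, with a median of 0.79. Without TN replicate 2 and HS replicate 1, it ranged from -0.31 to 0.55, with a median of 0.37, so most of the likeness rested on these 2 cows. The fold range from the lowest to the highest cow was 2.31 for *BOLA-DOA*, 2.55 for *BOLA-DRA*, 2.78 for *BOLA-DMB*, 3.05 for *BOLA-DMA* and 3.41 for *BOLA-DRB3*, around the median of 2.45 over 15073 genes. In contrast, 99.8% of these genes had a smaller range than *BOLA-DQA2* and 99.0% a smaller one than *BOLA-DQA5*.

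The genes most like the mean log2 level of the 5 members across the 9 cows, by Pearson's r, were *CLEC4F*, a C-type lectin of Kupffer cells in mice (r = 0.95), *CD74*, the invariant chain that escorts class II molecules (0.94), *NAIP*, an inflammasome sensor (0.93), *FCGR3A*, an immunoglobulin receptor of macrophages and natural killer cells (0.93), and *CTSS*, the protease that trims the invariant chain (0.92). *CD74* had 491, 889 and 419 CPM in TN, 503, 427 and 397 CPM in PF, and 839, 361 and 429 CPM in HS. *CTSS* had 96.8, 206 and 89.5 CPM in TN, 130.6, 96.6 and 74.4 CPM in PF, and 194, 88.3 and 109 CPM in HS. Both peaked in TN replicate 2 and HS replicate 1. Without these 2 cows r fell to 0.50 for *CD74* and 0.47 for *CTSS* and stayed at 0.85 for *CLEC4F*, which ranged from 0.953 CPM in TN replicate 3 to 38.9 CPM in TN replicate 2. *IFI30*, a lysosomal thiol reductase of antigen processing, also peaked there, at 41.4 and 35.6 CPM against 5.78 to 16.5 CPM in the other 7 cows. These correlations describe 9 cows in 3 groups. The 5 genes most like the mean were picked as the highest of 15064 genes searched, which by itself favors a high r.

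The genes most like *BOLA-DQA2* over the 9 cows were *ZNF579* (r = 0.97), *TRIP13* (0.96), *TSACC*, *DNAJC8* and *IMPDH1* (0.95 each), and those most like *BOLA-DQA5* were *ZNF579* (0.96), *TRIP13* (0.95), *DNAJC8* (0.95), *DYRK3* (0.93) and *CEMIP* (0.93). They were likewise picked as the highest of 15064 genes searched. Most varied far less than the DQ genes, with *ZNF579* between 5.09 and 9.96 CPM. Without TN replicate 1 and PF replicate 1, r for *ZNF579* was 0.83 with *BOLA-DQA2* and 0.84 with *BOLA-DQA5*. For *BOLA-DQB* they included *SPP1* (0.93), *LOC101903252* (0.92), *LOC504548* (0.92) and *CFD* (0.87), and without TN replicate 2 and HS replicate 1 these 4 lay between -0.31 and 0.53, with *LOC504548* at the upper end.

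Cells that carry class II molecules were checked through their markers. All 11 macrophage and Kupffer cell markers had at least 1 CPM in every cow, and their sum was 1651, 3699 and 1996 CPM in TN, 1742, 2260 and 1442 CPM in PF, and 3325, 2372 and 3996 CPM in HS. Every HS cow was above every PF cow, and 10.5% of all single genes separated these groups. HS replicate 1 and TN replicate 2 were among the 3 highest, as they were for the class II genes. HS replicate 3 had the highest sum without a high *BOLA-DRA* (215 CPM). In HS vs PF, 7 of 9 class II members had positive values, of which *BOLA-DRA*, *BOLA-DMA* and *BOLA-DOA* turned negative without HS replicate 1. With all cows, 2 members had an unadjusted p under 0.05. Of the 11 markers, 9 had such a p and were higher in HS, and 5.31% of all genes had such a p. The median log2 fold change of the markers was 0.85, but none was called (lowest FDR 0.586, edgeR). In HS vs TN the median was 0.34 and 1 marker had such a p, and in PF vs TN the median was -0.47 and 1 marker had such a p. Markers of dendritic cells summed to 34.0 to 38.1 CPM in TN, 21.2 to 28.3 in PF and 24.4 to 27.1 in HS, and those of B and plasma cells to 73.3 to 138, 46.3 to 112 and 82.3 to 111 CPM. The T and NK cell marker sum was 97.8 CPM in TN replicate 2 and 71.8 CPM in HS replicate 1. Both were above every other cow (58.5 to 68.9 CPM). In HS replicate 1, however, *NKG7* alone gave 33.5 CPM of the sum, its highest level in any cow. *CD8A* and *GZMB* were at their lowest there, at 4.94 and 0.037 CPM, and the other markers of this list lay within the range of the other cows. Pearson's r with the mean log2 level of the 5 members was 0.79 for the T and NK cell sum. It was 0.62 for the macrophage sum and 0.60 for the sinusoidal endothelium sum. For dendritic cells, B and plasma cells, hepatocytes and blood it lay between -0.13 and 0.13. No list had a marker at 0 in all cows. The part of these cells in the class II levels was not tested.

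**Figure D5:**
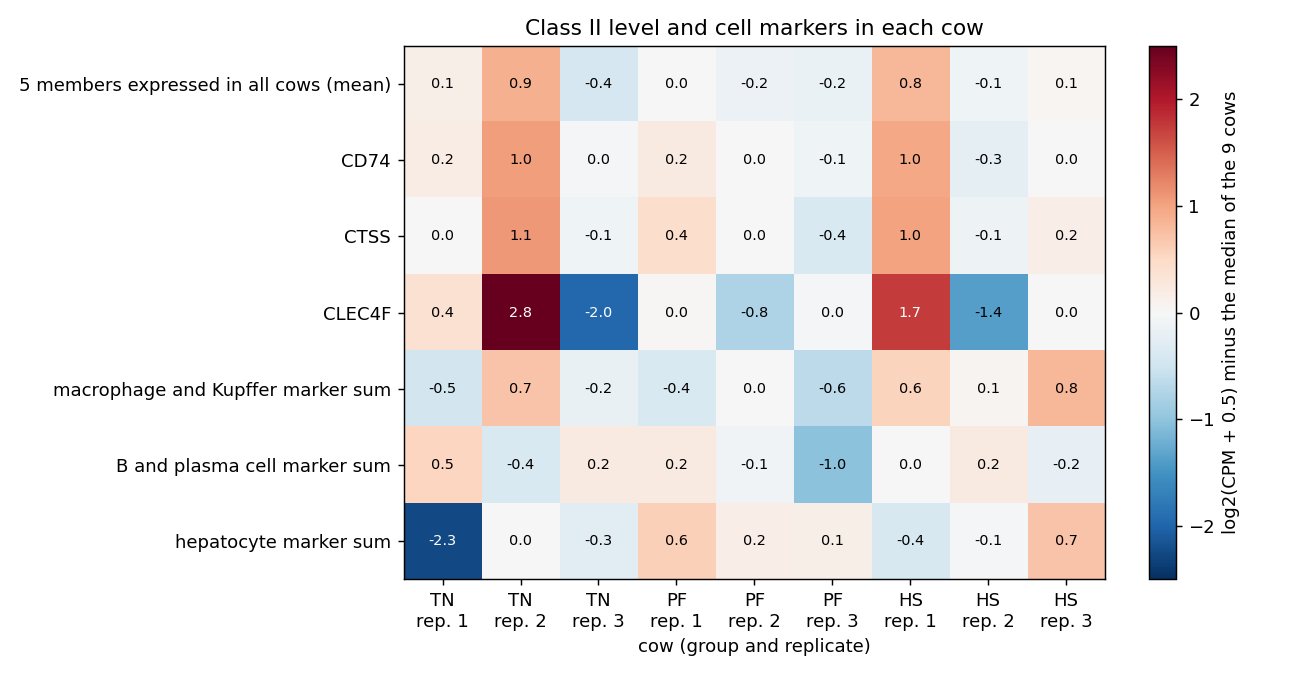
Log2(CPM + 0.5) minus the median of the 9 cows (color) for the mean of the 5 members expressed in every cow, for CD74, CTSS and CLEC4F, and for the summed markers of 3 cell types (y axis), in each cow (x axis). TN replicate 2 and HS replicate 1 are above the median in the class II, CD74, CTSS, CLEC4F and macrophage rows, and TN replicate 1 is lowest in the hepatocyte row.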

How the data were processed

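The authors sequenced poly(A) RNA in paired-end mode, filtered reads with fastp 0.23.2, aligned them to ARS-UCD1.2 with STAR 2.7.9a allowing 3 mismatches, and deposited raw counts per gene from featureCounts 2.0.3. The treatment of reads fitting several genes and the strand setting are not given in the sources used here. No 2 libraries held identical values.

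Each pair of groups (6 libraries) and all 9 libraries were fitted with edgeR 4.0.16 in R 4.3.3 (TMM, filterByExpr, quasi-likelihood F test), and p-values were adjusted by Benjamini-Hochberg across every gene in the fit. CPM used the TMM library sizes of the 9 libraries, and log2 levels an offset of 0.5 CPM. Fits were tested on simulated data. Gene names and order came from RefSeq (ARS-UCD2.0). Members and lists were chosen with earlier results of these data known. The genes named were all members, the other class II symbols, *CD74*, *CIITA*, *RFX5*, *CTSS*, *IFI30*, *B2M*, *TAP1* and the 5 genes most like each on-or-off member or the mean of the broadly expressed ones, of which 1 is not reported here. *LAG3* and *NFYC* were named after their values were seen. Promoter motifs were not analysed here. Alternatives were DESeq2 1.42.0, RLE size factors, library sizes without 13 mitochondrial genes, other count filters, a joint fit of 9 libraries, a stricter FDR of 0.05, a replicate block, and each cow left out in turn.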

Additional observations from a re-analysis of the deposited data

How the results depend on the processing

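No member was called in a pairwise comparison or across the 3 groups under any alternative except the removal of the filter on low counts. Without that filter 1 member, *BOLA-DQB*, with counts in few cows, was called in PF vs TN (FDR 0.0141, edgeR) and across the 3 groups (FDR 0.0406, edgeR). With DESeq2, 1 class II pathway gene, *LAG3*, was called in HS vs TN, and DESeq2 called 270 genes in all there against 13 by edgeR, 122 against 4 in HS vs PF and 91 against 0 in PF vs TN, with no member among them. *BOLA-DMB* in HS vs PF had an unadjusted p under 0.05 in 8 of 13 alternatives and *BOLA-DQA2* in 8 of 12. With a limit of 20-fold, 1 member, *BOLA-DQA2*, counted as on or off. When single cows were left out, 2 to 3 members did, as *BOLA-DQB* was lost without TN replicate 2. With at least 10 counts required in every library, the log2 fold change of *BOLA-DMB* in HS vs TN was -0.0048. Under this filter *BOLA-DQA2* and *BOLA-DQA5* could not be fitted in any comparison, nor *BOLA-DOB* in those with TN.

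The sign of small differences depended on single cows. Over the fits that left out 1 cow, the log2 fold change in HS vs TN ranged from -0.20 to 1.62 for *BOLA-DQA2*, from -0.32 to 1.70 for *BOLA-DQA5*, from -0.32 to 0.50 for *BOLA-DMA*, from -0.27 to 0.54 for *BOLA-DMB*, from -0.036 to 1.65 for *BOLA-DOB* and from -0.66 to 0.30 for *BOLA-DRA*. In HS vs PF it ranged from -0.87 to 0.12 for *BOLA-DRB2*, from -0.21 to 0.46 for *BOLA-DRA*, from -0.074 to 0.46 for *BOLA-DMA* and from -0.087 to 0.51 for *BOLA-DOA*. In PF vs TN it ranged from -0.68 to 0.052 for *BOLA-DRA*, from -0.43 to 0.38 for *BOLA-DRB3* and from -0.57 to 0.23 for *BOLA-DMA*. Over all alternatives, including those that left out no cow, 321 member values kept their sign and 22 did not.

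The samples share only a replicate number. The correlation of the deviations of same-numbered cows lay between -0.218 and 0.241 over the 3 comparisons, and no comparison had all 3 above 0.1. With a replicate block, 0 members were called in each comparison, and the calls over all genes were 33, 6 and 1 in HS vs TN, HS vs PF and PF vs TN. Depth limits *BOLA-DRB2*, *BOLA-DOA*, *BOLA-DOB*, *BOLA-DQA5* and *BOLA-DQB*, which had under 100 counts in most or all cows.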

Other observations

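Antigen presentation through MHC class I and interferon gamma signalling, which induces class II genes, showed no call. Of 12 class I pathway genes, 4 had positive and 8 negative log2 fold changes in HS vs TN (median -0.33), 8 and 4 in HS vs PF (median 0.04), and 4 and 8 in PF vs TN (median -0.31), and edgeR called none. *B2M*, the class I light chain, had 849, 1949.7 and 1156 CPM in TN, 1506, 1469.7 and 1032 CPM in PF, and 1482, 1141 and 1406 CPM in HS. *TAP1*, a subunit of the peptide transporter whose gene lies in the first class II block, ranged from 21.2 to 42.3 CPM and was highest in TN replicate 2. Of 7 interferon gamma signalling genes, 6 were tested, with a median log2 fold change of 0.07 in HS vs TN, 0.09 in HS vs PF and 0.04 in PF vs TN, and none was called. *IFNG* itself had at most 0.54 CPM, in TN replicate 1.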
